A study of Mus musculus with 8 samples.

Results

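The 10 members of a set of Tudor domain genes were followed in the testis, namely *Tdrd1*, *Tdrd3*, *Tdrd5*, *Tdrd6*, *Tdrd7*, *Tdrd9*, *Tdrd12*, *Tdrkh*, *Rnf17* and *Stk31*. These 10 genes were chosen by name and not by a cutoff on their values, though earlier results of these data were known. They were taken from the 24651 genes that remained once the counts of all transcripts with the same symbol were summed. RNA-seq libraries were made from whole testes of male mice at postnatal day 12, with 4 libraries labelled wild type and 4 labelled *Morc2b*-/-, each from 1 pair of testes on a mixed strain background. The *Morc2b*-/- males carry a deletion of exon 2 of *Morc2b* in every cell, so an effect in germ cells is not separated from one in somatic cells. The sample labels call the controls wild type, whereas the design text of the series calls them *Morc2b*+/-. Day 12 testes hold spermatogonia, early meiotic cells and somatic cells such as Sertoli cells. The paper places the most advanced germ cells at this age at the zygotene stage of prophase. Marker transcripts of later germ cells and of the epididymis were nonetheless counted in some libraries (below).

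Tudor domains are folds that bind methylated arginine or lysine. In germ cells, many Tudor domain proteins bind the methylarginine-rich tails of PIWI proteins and gather them in germ granules, which are RNA-protein bodies without a membrane that lie next to mitochondria or, later, as the chromatoid body of spermatids. There they serve the piRNA pathway, in which small RNAs guide PIWI proteins to transposon transcripts, and loss of many of these genes in mice arrests spermatogenesis. TDRD3 is the exception in this group, since it is made in most tissues and acts with the topoisomerase TOP3B and the RNA-binding protein FMRP.

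Each library gave between 27144796 and 36941755 counts on listed transcripts. The targeted gene, *Morc2b* (chromosome 17, 33272533 to 33276628, minus strand, NCBIM37/mm9), had 428, 443, 24 and 1272 counts in the 4 libraries labelled wild type, in the order of their replicate numbers, and 10, 10, 115 and 2 in the 4 labelled *Morc2b*-/-. The library labelled wild type replicate 3 therefore held fewer *Morc2b* counts than the library labelled *Morc2b*-/- replicate 3, against their labels, and the fold changes of the tested Tudor genes are given below with and without both of these libraries. The *Morc2b* level was 17.2 ± 16.5 counts-per-million units (CPM, with library sizes scaled by TMM for composition; SD, n = 4) against 0.989 ± 1.54 CPM, a log2 fold change of -4.09 (SE 1.21, 95% interval -6.82 to -1.36), with an adjusted p of 0.9998 by edgeR's quasi-likelihood test with Benjamini-Hochberg adjustment. Without both libraries labelled replicate 3, the *Morc2b* log2 fold change was -6.63 (95% interval -8.18 to -5.07), with an adjusted p of 0.189 in edgeR. Across the 13507 genes tested, 0% passed an adjusted p of 0.05, whereas 249 genes (1.84%) had an unadjusted p under 0.05, of which 181 were lower and 68 higher in *Morc2b*-/- testes. DESeq2 called 1 gene, *Pkmyt1*, with a log2 fold change of -0.49 and an adjusted p of 0.00931. Each library came from its own pair of testes, and litters, dissection days and extraction batches are not given, so p-values measure the spread between these 8 libraries.

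The counts of these genes went with the number of their listed transcripts. Reads that overlapped more than 1 listed transcript were set aside by the authors' counting and made up 26.8% to 28.8% of uniquely aligned reads, so a gene with several overlapping transcripts kept only reads that fell on 1 of them. The 5 genes with a single listed transcript had the largest totals over the 8 libraries. *Rnf17* had 70558 counts, *Stk31* 67551, *Tdrd9* 56617, *Tdrkh* 41427 and *Tdrd12* 9965. The 5 genes with several transcripts had far fewer. *Tdrd3*, with 2 transcripts, had 4097 and 2311 counts, and *Tdrd5*, also with 2, had 911 and 3.

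The other 3 genes had too few counts to be compared. *Tdrd1*, which encodes a partner of MILI in the granules between mitochondria, has 4 listed transcripts with totals of 0, 0, 14 and 20. Its counts were 6, 2, 2 and 11 in the wild type libraries and 0, 6, 5 and 2 in the *Morc2b*-/- libraries. *Tdrd6*, which encodes a chromatoid body protein of spermatids, had 0 counts on each of its 3 transcripts in every library. *Tdrd7*, which encodes a protein with LOTUS and Tudor domains found in the chromatoid body and the lens, had 1 count in all, in *Morc2b*-/- replicate 3, over 2 transcripts. For these 3 genes, low expression and reads set aside as shared cannot be told apart, and no comparison between genotypes was made. Over the whole annotation, 22.3% of the 6070 genes with more than 1 transcript stood at 0 counts in all libraries, against 17.1% of the 18581 genes with 1 transcript.

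**Figure D1:**
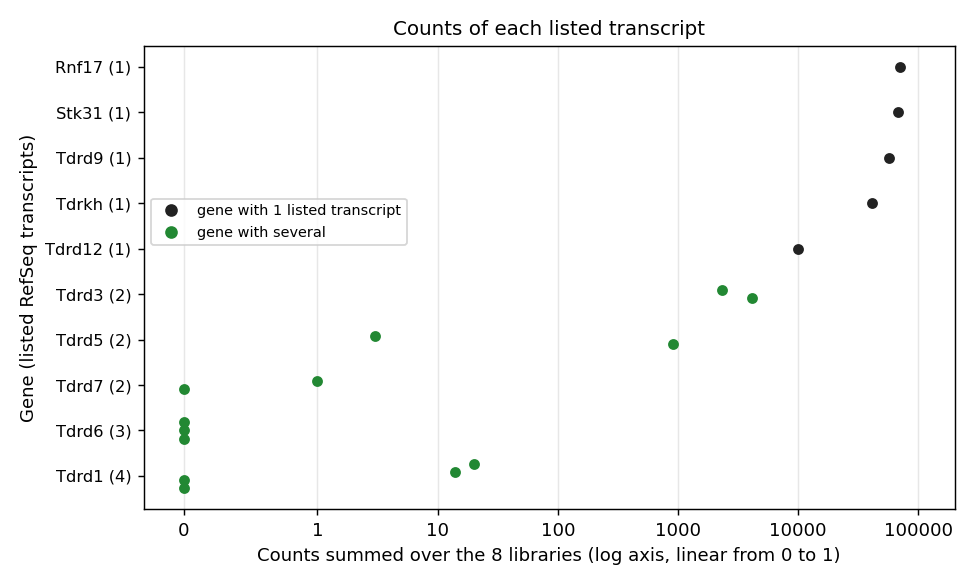
Counts of each listed transcript of the 10 Tudor domain genes, summed over the 8 libraries (x axis, logarithmic above 1 and linear from 0 to 1), by gene, with the number of listed transcripts in parentheses. Genes with 1 transcript (black) lie between 9965 and 70558 counts, and transcripts of genes with several (green) lie between 0 and 4097.

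The genes lie apart in the genome. In NCBIM37/mm9 coordinates, *Tdrd9* is at chromosome 12, 113209770 to 113307065 (plus strand), *Tdrd12* at chromosome 7, 36254117 to 36322764 (minus strand), and *Tdrkh* at chromosome 3, 94217218 to 94236555 (plus strand). *Stk31* is at chromosome 6, 49345603 to 49419500 (plus strand), and *Tdrd5* at chromosome 1, 158185426 to 158233795 (minus strand). No coding transcript of *Tdrd5* was found in the annotation used here. *Rnf17* (57021534 to 57143869) and *Tdrd3* (87816390 to 87945315) are both on the plus strand of chromosome 14. *Tdrd1* is at chromosome 19, 56900699 to 56944502 (plus strand), *Tdrd6* at chromosome 17, 43752284 to 43767248 (minus strand), and *Tdrd7* at chromosome 4, 45978206 to 46047633 (plus strand). No exon of another annotated gene overlaps the exons of these genes on either strand.

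For 5 of the 6 tested genes with a RefSeq promoter in the GRCm38.p6 build, the 250 bases before the most upstream listed start are shown, so that the bases in front of genes with similar patterns can be compared. The other is *Tdrd3*, which was in no pair of genes with similar patterns. Capitals mark matches, on either strand, to a MYB-type motif (CAACNG or TAACNG) or to the E-box CACGTG. The windows are chr12:111971309-111971558 (plus strand) for *Tdrd9*, chr7:35537745-35537994 (minus strand) for *Tdrd12*, chr1:156303349-156303598 (minus strand) for *Tdrd5*, chr3:94412994-94413243 (plus strand) for *Tdrkh* and chr6:49395289-49395538 (plus strand) for *Stk31*, each written 5′ to 3′ on the strand of its gene.
Tdrd9: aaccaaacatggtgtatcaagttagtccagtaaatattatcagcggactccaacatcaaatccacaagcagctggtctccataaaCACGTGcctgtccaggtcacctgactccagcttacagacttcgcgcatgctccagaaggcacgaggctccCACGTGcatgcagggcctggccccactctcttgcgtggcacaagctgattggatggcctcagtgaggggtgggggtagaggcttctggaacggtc
Tdrd12: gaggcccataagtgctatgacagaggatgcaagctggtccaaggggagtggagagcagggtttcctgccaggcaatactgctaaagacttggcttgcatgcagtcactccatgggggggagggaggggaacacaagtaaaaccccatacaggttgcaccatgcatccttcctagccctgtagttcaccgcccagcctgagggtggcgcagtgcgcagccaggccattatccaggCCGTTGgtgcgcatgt
Tdrd5: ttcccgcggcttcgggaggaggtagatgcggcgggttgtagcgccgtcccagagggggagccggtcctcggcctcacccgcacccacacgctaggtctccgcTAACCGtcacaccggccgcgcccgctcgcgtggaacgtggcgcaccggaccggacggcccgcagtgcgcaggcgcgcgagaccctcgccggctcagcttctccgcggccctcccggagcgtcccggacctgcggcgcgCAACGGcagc
Tdrkh: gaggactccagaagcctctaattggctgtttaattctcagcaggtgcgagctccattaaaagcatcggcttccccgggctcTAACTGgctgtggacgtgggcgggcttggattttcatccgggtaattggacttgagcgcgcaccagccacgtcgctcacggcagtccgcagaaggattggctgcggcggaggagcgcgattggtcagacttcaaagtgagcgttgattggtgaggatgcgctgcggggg
Stk31: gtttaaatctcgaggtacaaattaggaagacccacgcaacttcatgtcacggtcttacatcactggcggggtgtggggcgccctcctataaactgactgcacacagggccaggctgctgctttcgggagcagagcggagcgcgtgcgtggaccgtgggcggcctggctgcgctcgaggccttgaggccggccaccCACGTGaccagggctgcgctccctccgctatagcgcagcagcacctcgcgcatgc

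In these windows *Tdrd9* had 2 E-boxes and no MYB-type match, *Tdrd12* had 1 MYB-type match and no E-box, *Tdrd5* had 2 MYB-type matches, *Tdrkh* had 1, and *Stk31* had 1 E-box. Motifs were counted over the 300 bases from 250 before to 50 after each start, in 32851 RefSeq promoters of 27025 genes. Of the 10 genes, 8 had at least 1 promoter there, and *Rnf17* and *Tdrd6* had none. The MYB-type motif was in the promoters of 4 of these 8 genes (*Tdrd5*, *Tdrd7*, *Tdrd12* and *Tdrkh*) and of 53.1% of all genes (49.7% of all promoters). The E-box was in 3 (*Tdrd1*, *Tdrd9* and *Stk31*) and in 8.09% of genes (7.15% of promoters). The NRF1 motif was in 4 (*Tdrd1*, *Tdrd5*, *Tdrd7* and *Stk31*) and in 7.0% (6.23%), and the E2F motif TTCCCGC in 1 (*Tdrd5*) and in 5.29% (4.60%). The letters CACGCG were in 5 (*Tdrd1*, *Tdrd3*, *Tdrd5*, *Tdrd7* and *Stk31*) and in 10.5% (9.27%). A gene with several listed starts had more windows in which a match could occur. A match is a description of the letters and not a binding site. Of the pairs whose levels kept nearly fixed proportions (below), neither *Tdrd9* and *Tdrd12* nor *Stk31* and *Tdrkh* shared a motif marked in capitals. *Tdrd12* and *Tdrd5*, whose ratio was also narrow, both had the MYB-type motif, which 53.1% of all genes had. *Rnf17* had no promoter to set beside that of *Stk31*.

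Levels of different genes can be set side by side only per length, and the length of the counted transcript was not known. With the longest annotated coding transcript as the length, wild type levels were 83.9 ± 11.2 RPKM (CPM divided by the length in kilobases; SD, n = 4) for *Stk31*, 55.8 ± 8.60 for *Rnf17*, 51.4 ± 10.9 for *Tdrd9*, 45.8 ± 4.85 for *Tdrkh* and 11.5 ± 2.60 for *Tdrd12*. In *Morc2b*-/- libraries they were 79.5 ± 8.46, 51.7 ± 4.86, 40.9 ± 2.96, 43.5 ± 4.47 and 9.25 ± 1.11 RPKM, in the same order of genes. With these lengths *Stk31* was highest and *Tdrd12* lowest, and *Rnf17* was above *Tdrkh* in every library. *Tdrd9* had no fixed place in the wild type. It was above *Rnf17* in replicate 4 (65.7 against 64.0 RPKM) and below *Tdrkh* in replicate 3 (39.4 against 40.7 RPKM). The order depended on the lengths used, at its ends too. With the next longest coding transcript, the wild type means were 90.8 RPKM for *Stk31*, 84.8 for *Rnf17*, 63.0 for *Tdrkh*, 55.8 for *Tdrd9* and 26.7 for *Tdrd12*. *Rnf17* at that length stood at the level of *Stk31* at its longest, and *Tdrd12* reached 56.3 RPKM with its shortest annotated coding transcript of 769 bases. *Tdrd3* and *Tdrd5* were left out of this order because their shared reads were not counted.

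Of the 10 genes, 7 passed the filter on low counts and were tested, and none passed an adjusted p of 0.05, as for all genes. Log2 fold changes of 6 of the 7 were below 0 in *Morc2b*-/- testes, against 49.2% of all genes tested, and 1 of the 7, *Tdrd9*, had an unadjusted p under 0.05. In edgeR's quasi-likelihood test the unadjusted p-values of the other 6 ranged from 0.0808 for *Tdrd12* to 0.496 for *Stk31*, and the Benjamini-Hochberg adjusted p of each of the 7 was 0.9998. In none of the 7 were all *Morc2b*-/- libraries below all wild type libraries, which was so for 0.881% of all genes tested. Their median log2 fold change was -0.11, beside 0.0022 over all genes tested, and the median size of a change over all genes was 0.0748. The 7 genes share libraries and cell types and are not replicates of one another, so these counts describe them and were given no test.

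With all 8 libraries, *Tdrd9*, *Tdrd12* and *Tdrd5* had the lowest fold changes, and their intervals overlapped. *Tdrd9* encodes a DExH-box helicase with a Tudor domain that acts with the nuclear PIWI protein MIWI2. It stood at 232, 251, 189.5 and 316 CPM in wild type replicates 1 to 4 and at 193, 204, 179 and 212 CPM in *Morc2b*-/- replicates 1 to 4. Wild type replicates 1, 2 and 4 lay above every *Morc2b*-/- library, and wild type replicate 3 lay among them. The means were 247 ± 52.7 and 197 ± 14.2 CPM (SD, n = 4), a log2 fold change of -0.33 (SE 0.14, 95% interval -0.64 to -0.02), or 0.796 of the wild type level (95% interval 0.643 to 0.985). By edgeR's quasi-likelihood test the unadjusted p was 0.0388 and the Benjamini-Hochberg adjusted p 0.9998. Wild type replicate 4 set much of the size of this difference: without it the log2 fold change was -0.19, with an unadjusted p of 0.0967 in the same edgeR fit, and without wild type replicate 3 it was -0.44. With both libraries labelled replicate 3 left out, it was -0.39 (95% interval -0.67 to -0.12).

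*Tdrd12* encodes a helicase-domain protein needed for the production of secondary piRNAs. Its level was 40.2, 43.4, 33.0 and 56.4 CPM in the wild type libraries and 31.7, 35.2, 32.1 and 40.7 CPM in the *Morc2b*-/- libraries. As for *Tdrd9*, wild type replicate 4 was highest of all, but here both wild type replicates 1 and 3 lay within the *Morc2b*-/- range. The means of 43.3 ± 9.82 and 34.9 ± 4.18 CPM gave a log2 fold change of -0.31 (SE 0.16, 95% interval -0.67 to 0.05). The interval runs from 0.630 to 1.03 of the wild type level and so includes no difference. The log2 fold change was -0.16 without wild type replicate 4, -0.42 without wild type replicate 3, and -0.38 (95% interval -0.74 to -0.02) without both libraries labelled replicate 3, where *Tdrd9* and *Tdrd12* were the 2 of 7 genes with an unadjusted p under 0.05.

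*Tdrd5* encodes a LOTUS and Tudor domain protein of germ granules that is needed for spermatid development and transposon silencing. Reads specific to 1 transcript gave 3.57, 3.81, 2.89 and 5.41 CPM in the wild type libraries and 2.91, 3.06, 3.21 and 3.82 CPM in the *Morc2b*-/- libraries. Wild type replicate 4 was again the highest library and wild type replicate 3 the lowest, so the genotypes overlapped. The log2 fold change was -0.27 (SE 0.21, 95% interval -0.74 to 0.19). Between 81 and 172 counts lay behind each value, and the log2 fold change was -0.08 without wild type replicate 4 and -0.39 without both libraries labelled replicate 3.

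*Tdrkh* encodes a Tudor and KH domain protein on the surface of mitochondria that takes part in trimming piRNA 3′ ends. It stood at 158, 189, 148 and 170.1 CPM in the wild type and 138, 176, 152 and 166 CPM in *Morc2b*-/- testes. The 2 ranges overlapped over most of their length. The means were 166 ± 17.6 and 158 ± 16.2 CPM and the log2 fold change -0.07 (SE 0.09, 95% interval -0.29 to 0.14), which allows between 0.819 and 1.10 of the wild type level.

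*Rnf17* encodes a protein with a RING finger and several Tudor domains that forms granules of its own in spermatocytes and is required for spermatid differentiation. Its level was 257, 321, 242 and 329 CPM in the wild type and 244, 286, 245 and 289 CPM in *Morc2b*-/- libraries. Wild type replicates 2 and 4 were above every *Morc2b*-/- library, and wild type replicate 3 was below every one. The log2 fold change was -0.11 (SE 0.11, 95% interval -0.37 to 0.14), and -0.15 without both libraries labelled replicate 3.

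*Stk31* encodes a germ cell protein that joins a Tudor domain to a kinase-like domain. It stood at 244, 309, 237 and 296 CPM in the wild type and 224, 289.8, 252 and 264 CPM in the *Morc2b*-/- libraries, with overlapping genotypes. The log2 fold change was -0.08 (SE 0.11, 95% interval -0.32 to 0.17). Leaving out both libraries labelled replicate 3 gave -0.13 for *Stk31* and -0.11 for *Tdrkh*.

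*Tdrd3*, the widely expressed member, was the single tested gene of the group with a fold change above 0. Its level was 22.7, 22.7, 24.4 and 27.2 CPM in the wild type libraries and 27.1, 25.1, 24.6 and 27.1 CPM in the *Morc2b*-/- libraries. The genotypes overlapped, with wild type replicates 1 and 2 lowest. The log2 fold change was 0.10 (SE 0.09, 95% interval -0.09 to 0.29), which allows between 0.936 and 1.23 of the wild type level, and 0.13 without both libraries labelled replicate 3. The fold changes of *Tdrd3* and of the other 6 genes were not tested against each other.

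**Figure D2:**
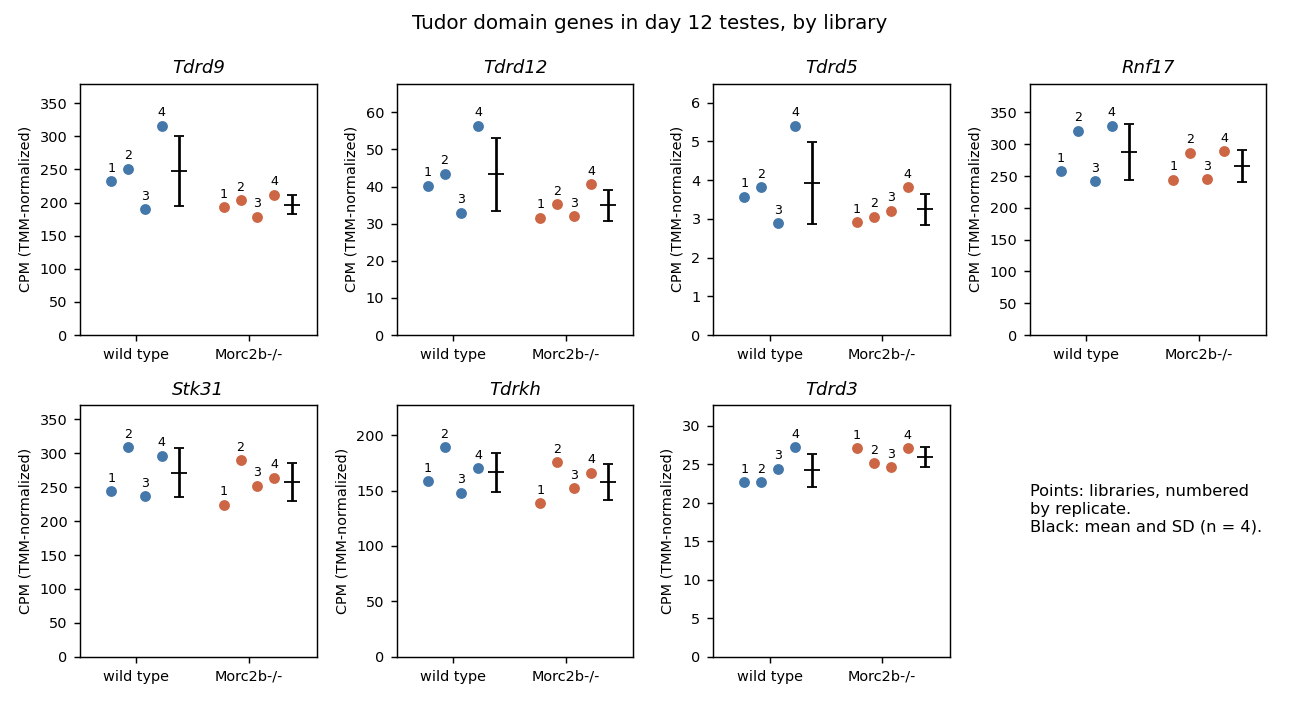
Level of each tested Tudor domain gene (y axis, TMM-normalized CPM from 0) in the 4 wild type (blue) and 4 *Morc2b*-/- (orange) libraries, numbered by replicate, with the mean and SD of each genotype in black. Wild type replicate 4 is the highest library for *Tdrd9* (316 CPM), *Tdrd12* (56.4 CPM), *Tdrd5*, *Rnf17* and *Tdrd3*, and the genotypes overlap for every gene.

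**Figure D3:**
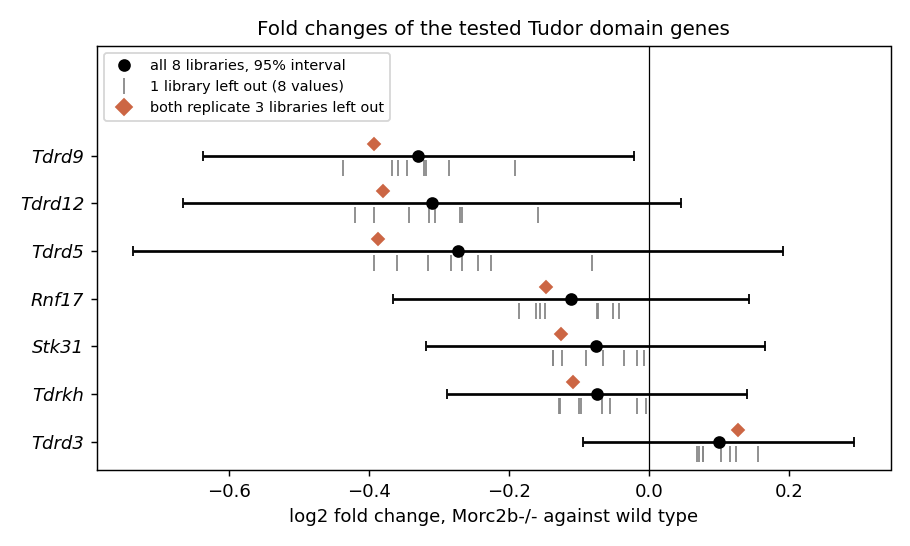
Log2 fold change of *Morc2b*-/- against wild type for the 7 tested genes (x axis), with the 95% interval of the fit to all 8 libraries (black), the 8 values with 1 library left out each (grey ticks) and the value without both libraries labelled replicate 3 (orange diamonds). The interval of *Tdrd9* (-0.64 to -0.02) lies below 0, and the other 6 intervals include 0.

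The 2 listed transcripts of *Tdrd3* allowed a look at its transcript use. Of the reads specific to 1 of them, the first listed transcript took 60.4%, 58.1%, 64.4% and 67.7% in wild type replicates 1 to 4 and 63.1%, 65.9%, 64.1% and 65.9% in *Morc2b*-/- replicates 1 to 4. The lowest share, in wild type replicate 2, had a Wilson 95% interval of 54.2% to 61.9%, and the highest, in wild type replicate 4, of 64.6% to 70.8%. These intervals cover counting error only. The 2 extreme shares were thus both in the wild type, and the *Morc2b*-/- shares lay between them. Fitted as units of their own, the first transcript had a log2 fold change of 0.14 and the second of 0.02, each with an adjusted p of 0.9997 in edgeR.

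The genes did not vary alike over the libraries. The SD of log2 CPM over the 8 libraries was 0.29 for *Tdrd5*, 0.28 for *Tdrd12* and 0.27 for *Tdrd9*, which placed them at the 70.4, 68.6 and 66.3 percentiles of all genes tested. It was 0.18 for *Rnf17*, 0.17 for *Stk31* and 0.14 for *Tdrkh*, and 0.11 for *Tdrd3*, at the 23.3 percentile. The first 3 genes shared a high value in wild type replicate 4, where they stood 0.53 to 0.61 log2 units above their own mean over the libraries. In the same library *Rnf17* stood 0.26, *Stk31* 0.17, *Tdrd3* 0.12 and *Tdrkh* 0.08 log2 units above its mean.

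**Figure D4:**
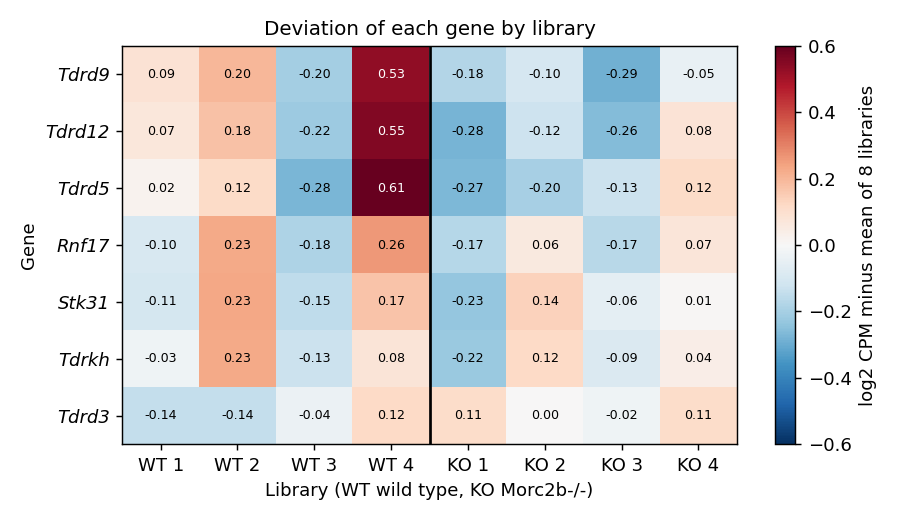
Deviation of each tested gene (rows) in each library (columns) from its own mean over the 8 libraries, in log2 CPM, with red above and blue below the mean. *Tdrd9*, *Tdrd12* and *Tdrd5* stand out in wild type replicate 4 (0.53, 0.55 and 0.61), whereas *Tdrkh* and *Stk31* are highest in wild type replicate 2 (0.23 each).

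Within a library, 2 pairs of genes kept nearly fixed proportions. The ratio of *Tdrd9* to *Tdrd12* counts lay between 5.20 and 6.10 in the 8 libraries (SD of its log2, 0.066), with a mean of 5.72 ± 0.0846 in the wild type and 5.66 ± 0.377 in *Morc2b*-/- testes (SD, n = 4). The ratio of *Stk31* to *Tdrkh* counts lay between 1.54 and 1.74 (SD of its log2, 0.052), with means of 1.63 ± 0.0845 and 1.63 ± 0.0315. The levels of both genes of each pair therefore moved together over libraries while each ratio stayed within a narrow range. *Tdrd12* to *Tdrd5* ranged from 9.99 to 11.5 and *Rnf17* to *Stk31* from 0.971 to 1.11, and both were also narrow.

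Ratios across these groups varied more. *Rnf17* to *Tdrd9* ranged from 1.04 to 1.28 in the wild type and from 1.26 to 1.41 in *Morc2b*-/- libraries, which overlapped slightly. *Tdrd9* to *Tdrd3* was 10.2 ± 1.70 in the wild type (7.77 to 11.6) and 7.58 ± 0.461 in *Morc2b*-/- testes (7.14 to 8.11), also with overlap. The widest ratio of any pair of the 7 genes was that of *Tdrd3* to *Tdrd5*, from 5.03 to 9.30. These ratios share their libraries, and no test was made of them.

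**Figure D5:**
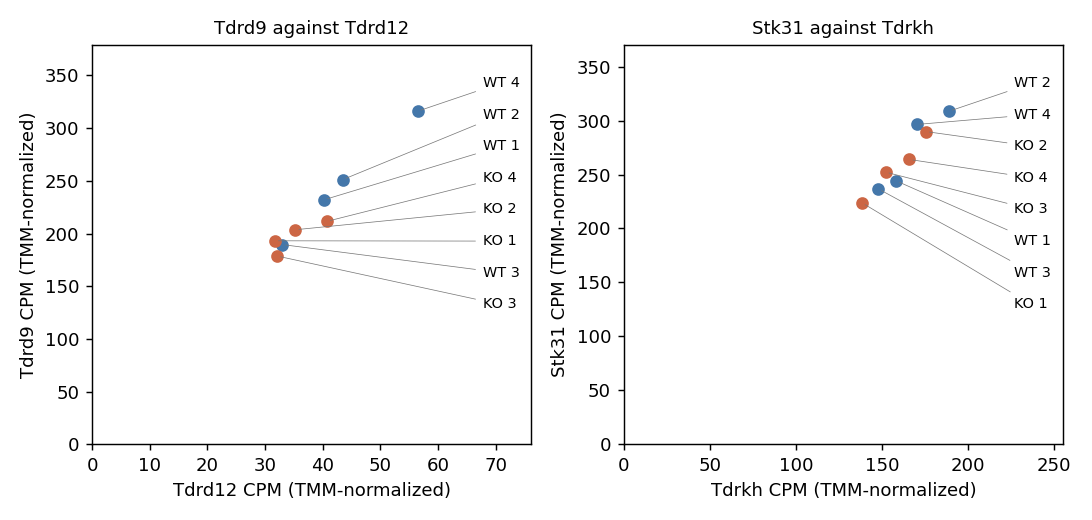
CPM of *Tdrd9* against *Tdrd12* (left) and of *Stk31* against *Tdrkh* (right) in the 4 wild type (WT, blue) and 4 *Morc2b*-/- (KO, orange) libraries, with axes from 0. In both panels the libraries lie close to a line through 0, with WT 4 farthest out on the left (56.4 and 316 CPM) and WT 2 on the right (189 and 309 CPM).

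Likeness of pattern was also measured against all tested genes, as the root mean square difference of log2 CPM after the mean of each gene over the 8 libraries was removed. *Tdrd9* and *Tdrd12* were each other's nearest gene among all those tested, at 0.0612. The nearest gene to *Tdrd5* was *2700046G09Rik* at 0.0650, with *Tdrd12* close behind at 0.0670. *Tdrkh* was nearest to *Dmap1* (0.0325), *Stk31* to *Syce1* (0.0356), which encodes a protein of the synaptonemal complex, *Rnf17* to *Pdss1* (0.0386), and *Tdrd3* to *Slc38a2* (0.0189). *Tdrkh* and *Stk31* were 0.0485 apart, and the other tested member most like *Tdrd3* was *Rnf17*, at 0.189. The mean pattern of the 7 genes was most like that of *Ufl1* (0.0268), *Socs7* (0.0317), *Nup205* (0.0425), *Srpk1* (0.0440) and *Tmem231* (0.0443). A gene with little variation of its own has many near genes, so the distances of different genes are not on a par.

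The libraries stood in a similar order by the summed level of the Tudor domain genes and by the summed pan germ cell markers, but not by spermatogonial markers. Summed CPM of the Tudor genes was 1201 in wild type replicate 4, 1140.1 in wild type replicate 2, 1019 in *Morc2b*-/- replicate 2, 1002 in *Morc2b*-/- replicate 4, 958 in wild type replicate 1, 888 in *Morc2b*-/- replicate 3, and 876 and 861 in the lowest libraries, wild type replicate 3 and *Morc2b*-/- replicate 1. The summed pan germ cell markers (*Ddx4*, *Dazl*, *Tex101*, *Mael*, *Dppa3* and *Sycp3*, all 6 tested, 5 with a log2 fold change below 0) stood at 1880.4, 1806, 1641, 1823, 1368, 1305, 1091 and 952 CPM in the same order of libraries. Their highest library and their 4 lowest libraries had the same ranks in both sums. Most of the marker sum came from *Tex101*, *Mael* and *Sycp3*, while *Ddx4*, *Dazl* and *Dppa3* stood between 0.974 and 9.39 CPM. *Ddx4* and *Dazl* have 2 listed transcripts each, so their shared reads were not counted. *Mael* is also on the list of piRNA pathway genes, and *Sycp3* on that of leptotene and zygotene markers. Summed leptotene and zygotene markers stood in a similar order too, at 4173, 4147, 3318, 4230, 3061, 2641, 2820 and 2590 CPM in the same order of libraries. Summed spermatogonial markers were lowest in wild type replicate 4 (634 CPM) and highest in wild type replicate 3 (842 CPM) and *Morc2b*-/- replicate 3 (829.6 CPM), with 4 of 7 tested genes below 0. In bulk tissue, fewer cells of a type and less RNA per cell cannot be told apart. The part of germ cell content or of meiotic stage in the fold changes of the Tudor genes was not tested.

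The libraries labelled replicates 2 and 4 of both genotypes were above all those labelled 1 and 3 for *Tdrkh* (166 to 189 against 138 to 158 CPM), *Rnf17* (286 to 329 against 242 to 257 CPM) and *Stk31* (264 to 309 against 224 to 252 CPM). This was not so for *Tdrd9*, *Tdrd12*, *Tdrd5* and *Tdrd3*. No source gives a meaning to the replicate numbers beyond naming the libraries.

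Wild type replicate 4 also had the highest sum of pachytene markers, though not of spermatid markers. The summed markers of pachytene cells ranged from 125 to 435 CPM in the wild type, with wild type replicate 4 highest, and from 126 to 263 CPM in *Morc2b*-/- libraries. Of this list, 8 genes were tested, 6 with a log2 fold change below 0 and a median of -0.34. *Adam3* and *Clgn* were listed at 0, but have 2 and 3 listed transcripts, so low expression and shared reads cannot be told apart. Without both libraries labelled replicate 3, 8 of 9 tested genes were below 0 (50.3% of all genes in that fit), with a median of -1.39. Of these 9, 4 (*Piwil1*, *Ldhc*, *Adam2* and *Hspa2*) had an unadjusted p under 0.05 in edgeR, all lower in *Morc2b*-/- testes (3.12% of all genes in either direction). Markers of leptotene and zygotene cells summed to between 2820 and 4173 CPM in the wild type and between 2590 and 4230 CPM in *Morc2b*-/- libraries, with all 12 genes tested and 9 below 0. Spermatid markers summed to 150.5, 2.68, 3.54 and 2.23 CPM in wild type replicates 1 to 4 and to 18.2, 34.5, 305 and 2.99 CPM in *Morc2b*-/- replicates 1 to 4, so that wild type replicate 4 was the lowest library. Of that list, 7 genes were tested and 0 had a log2 fold change below 0, with a median of 1.21. Without both libraries labelled replicate 3, 6 of 7 were below 0 and the median was -1.45. That fit left out *Morc2b*-/- replicate 3, the library with the highest sum, but kept wild type replicate 1, with the next highest. Spermatids are later than the cells that the paper describes at this age, and the source of these transcripts was not tested. Sertoli cell markers ranged from 6777 to 7687 and from 7326 to 8265 CPM. The part of these markers in the results was not tested, and the level of *Tdrd9* without wild type replicate 4 is given above.

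The other genes of the piRNA pathway and germ granules on a list of 21 lay mostly below 0 too. Of the 17 that were tested, 16 had a log2 fold change below 0 (49.2% of all genes tested), with a median of -0.09, and 2 had an unadjusted p under 0.05 (1.84% of all genes tested), both lower in *Morc2b*-/- testes. Without both libraries labelled replicate 3, 13 of 17 were below 0 (50.3% of all genes in that fit), and 3 had an unadjusted p under 0.05 (3.12% of all genes), the added gene being *Ddx25*. *Piwil1*, which encodes the PIWI protein MIWI of pachytene spermatocytes and spermatids, stood at 36.2, 46.3, 16.6 and 133 CPM in the wild type libraries and at 15.5, 14.8, 14.7 and 15.8 CPM in the *Morc2b*-/- libraries. All wild type libraries lay above all *Morc2b*-/- libraries for this gene, wild type replicate 3 by the least, as was so for 0.881% of all genes tested. Its log2 fold change was -1.93 (SE 0.53, 95% interval -3.13 to -0.74). By edgeR's quasi-likelihood test its unadjusted p was 0.00513 and its Benjamini-Hochberg adjusted p 0.9998. Without both libraries labelled replicate 3, its log2 fold change was -2.22 (95% interval -3.31 to -1.13), with an adjusted p of 0.509 in edgeR. *Piwil2*, which encodes MILI, went from 651 ± 77.9 to 571 ± 20.7 CPM (SD, n = 4), a log2 fold change of -0.19. In the same edgeR fit its unadjusted p was 0.0482 and its Benjamini-Hochberg adjusted p 0.9998. The highest value of the list was that of *Nanos3*, at 0.07. *Piwil4* was on the list but absent from the counted genes. *Pld6*, *Fkbp6* and *Prmt5* had too few counts to be tested. They have 3, 4 and 3 listed transcripts, so low expression and reads set aside as shared cannot be told apart.

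Median log2 fold changes were closer to 0 in a list of other Tudor domain genes and in a list of RNA granule proteins. Of 19 Tudor domain genes outside the group, most of them chromatin readers or splicing factors, 12 were tested, 7 had a log2 fold change below 0 (5 without both libraries labelled replicate 3), the median was -0.02, and 0 had an unadjusted p under 0.05 in edgeR, with values from -0.12 (*Mtf2*) to 0.06 (*Smndc1*). *Setdb1*, *Setdb2*, *Phf1* and *Uhrf1* were listed at 0. They have 3, 3, 3 and 4 listed transcripts, so low expression and reads set aside as shared cannot be told apart. The list of RNA granule proteins known from somatic cells held 11 genes, which include the partners of TDRD3. Of these, 6 were tested, 3 were below 0, the median was 0.00098, and 0 had an unadjusted p under 0.05 in edgeR, with values from -0.17 (*Fxr1*) to 0.28 (*Fmr1*). Without both libraries labelled replicate 3, 4 of 7 tested genes of this list were below 0, with a median of -0.043. Whether these proteins also belong to germ cell granules was not considered in choosing the list. The lists were not tested against each other or against the Tudor genes.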

How the data were processed

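RNA was extracted with TRIzol from 8 pairs of day 12 testes, and TruSeq stranded mRNA libraries were pooled and sequenced on an Illumina NextSeq instrument. Raw counts, 1 table per library with a row per RefSeq transcript, were deposited by the authors. Before counting, adapters and reads of low quality had been removed, and Tophat had aligned the rest to the mouse genome (NCBI37/mm9). The submitters' processing notes also name Cufflinks and Cuffdiff. Which program counted the reads, whether it used strand, and which annotation release it read are not given in the sources used here. Tally lines (ambiguous, no feature, not aligned) were kept out of library sizes and tests.

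Of 35819 listed transcripts, 35522 were matched to a symbol by accession, and the 297 others (0.484% of counts) were kept as units. Counts were summed per symbol. Genotypes were compared with edgeR 4.0.16 (R 4.3.3) over all genes, with TMM normalization, filterByExpr by genotype, estimateDisp, glmQLFit and glmQLFTest, with genotype as the single term and a Benjamini-Hochberg adjusted p threshold of 0.05. The study's own test, Cuffdiff on FPKM, cannot be run on counts. Patterns over libraries used log2 CPM with a prior count of 2. Promoters came from RefSeq (GRCm38.p6) and gene positions from GENCODE on NCBIM37; no coordinates were moved between builds. The procedure was tested on simulated data. Alternatives were RLE normalization, DESeq2 1.42.0, limma-voom (limma 3.58.1), robust empirical Bayes, 3 other count filters, the replicate number as a block, transcripts as units, and left-out libraries. The members and gene lists were chosen with earlier results of these data known. Genes named are the members, *Morc2b*, the listed genes with an unadjusted p under 0.05 or an extreme fold change, genes at 0, and those nearest in pattern. *Pkmyt1* was named after its value was seen. Figures were drawn with matplotlib 3.10.9.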

Additional observations from a re-analysis of the deposited data

Results flagged for a closer look

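Among 18 measures (the Tudor domain genes, *Morc2b* and summed marker levels) in 2 genotypes, 36 groups of 4 libraries were examined with Dixon's test at its 95% critical value, which chance passes in about 1 of 20 groups, and 6 had a library far from the others. None of the 6 was a Tudor domain gene. *Morc2b* stood at 3.29 CPM in the library labelled *Morc2b*-/- replicate 3, against 0.0688 to 0.323 CPM in the other *Morc2b*-/- libraries. Summed spermatid markers stood at 150.5 CPM in wild type replicate 1 (others 2.23 to 3.54) and at 305 CPM in *Morc2b*-/- replicate 3 (others 2.99 to 34.5). Summed peritubular myoid markers stood at 1694 CPM in wild type replicate 1 (others 784 to 865). Summed epididymis markers stood at 249.7 CPM in wild type replicate 1 (others 0.679 to 1.25) and at 13.9 CPM in *Morc2b*-/- replicate 2 (others 0.585 to 1.55), with *Lcn9* and *Rnase10* at 0 throughout. *Rnase10* has 2 listed transcripts, so its shared reads were not counted. In wild type replicate 1, the tested Tudor domain genes lay between 0.14 log2 units below (*Tdrd3*) and 0.09 above (*Tdrd9*) their means over the 8 libraries.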

How the results depend on the processing

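Direction and side of the adjusted threshold were kept by all 7 tested Tudor domain genes under each of 19 alternatives, and by *Morc2b* under the 18 that could be run. *Morc2b* had no value under the filter of at least 10 counts in every sample, which removed it. Leaving out 1 library at a time, log2 fold changes ranged from -0.44 to -0.19 for *Tdrd9*, -0.42 to -0.16 for *Tdrd12*, -0.39 to -0.08 for *Tdrd5*, -0.19 to -0.04 for *Rnf17*, -0.14 to -0.0067 for *Stk31*, -0.13 to -0.005 for *Tdrkh*, 0.07 to 0.16 for *Tdrd3* and -6.23 to -3.26 for *Morc2b*, and the median of the 7 genes from -0.19 to -0.05. Without wild type replicate 4, *Tdrd9*, *Tdrd12*, *Tdrd5*, *Rnf17* and *Morc2b* had their fold change nearest to 0. The count of genes past the adjusted threshold was 0 in edgeR and limma-voom and 1 in DESeq2. The count of listed pathway genes with an unadjusted p under 0.05 was 2, and 1 under limma-voom, with no low-count filter and with both libraries labelled replicate 4 left out (chosen after seeing the data), 3 with the replicate block and 3 without both libraries labelled replicate 3, and ranged from 1 to 3 with 1 library left out. The count over all genes was 249, and 572 with a replicate block, 422 with no low-count filter, 421 without both libraries labelled replicate 3, and 204 to 504 with 1 library left out; why it moved was not tested. The replicate numbers did not pair all of the samples. Correlations of same-numbered libraries' deviations were -0.156, 0.245, -0.322 and 0.453, and 4 of 8 libraries correlated best with their own number. Wild type replicates 2 and 4 and the *Morc2b*-/- libraries of the same number were each other's best partners. Wild type replicate 1 was so matched with *Morc2b*-/- replicate 3 (0.614), and wild type replicate 3 with *Morc2b*-/- replicate 1 (0.516). The reason for these matches was not tested. With the replicate block, 0 genes passed the adjusted threshold, and log2 fold changes were -0.31 for *Tdrd9* and -0.29 for *Tdrd12*, whose unadjusted p-values of 0.00835 and 0.0119 became adjusted p-values of 0.985 by edgeR's quasi-likelihood test. For *Tdrd1*, *Tdrd3*, *Tdrd5*, *Tdrd6* and *Tdrd7*, reads on more than 1 listed transcript are in no count, and how many they were is not known.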

Other observations

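Marker lists of other cell types, as sums in CPM, gave the following ranges. Leydig cell markers ranged from 119 to 593 CPM in the wild type and from 123 to 650.3 CPM in *Morc2b*-/- libraries, and macrophage markers from 129 to 178 and from 125 to 167 CPM. Peritubular myoid markers ranged from 784 to 1694 and from 809 to 999 CPM. In the Sertoli list, *Clu*, which encodes clusterin, was higher in *Morc2b*-/- testes with an unadjusted p under 0.05.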
